A study of Mus musculus with 2 samples.

Results

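The clustered protocadherin genes are 57 protein-coding genes on mouse chromosome 18, between positions 36930184 and 37841873 of genome build mm10. They were chosen by symbol alone, as every protein-coding gene of GENCODE release M21 whose symbol starts with Pcdha, Pcdhb or Pcdhg, out of 21668 protein-coding genes on chromosomes 1 to 19 and X. The alpha set had 14 genes, the beta set 22 and the gamma set 21. All of them were transcribed from the same strand and stood in that order along the chromosome. Their promoters were read in DNase-seq, where cuts made by DNase I in nuclei show which chromatin is accessible. The tissue was the facial prominence, from which the face grows, of embryos of strain B6NCrl at embryonic day 11.5, described in the labels as healthy and as a pool of both sexes. There were 2 libraries in 1 group, biological replicates 1 and 2, from separate biosamples that carry the same donor label, and no conditions could be compared. Both libraries were sequenced on the same pair of Illumina instrument models, and replicate 2 on a further HiSeq model as well.

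Clustered protocadherins are cadherin-family adhesion proteins of the cell surface. In neurons each cell is known to use a varying subset of them, and the combination serves to tell the cell's own branches from those of its neighbours. Each alpha or gamma gene has its own promoter and a large variable first exon, which is spliced to constant exons shared by the whole set, while a beta gene is a single large exon with no shared constant part. The last genes of the alpha and gamma sets, named the C-type genes Pcdhac1, Pcdhac2, Pcdhgc3, Pcdhgc4 and Pcdhgc5, are known in neurons for more uniform use than the others. Loops made by CTCF, a DNA-binding protein that stops the ring complex cohesin, are known to join the promoters to enhancers inside and behind the cluster.

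Each library had a list of peaks and a list of hotspots, which are wider enriched regions. A peak was 150 bp long, and the value that the authors deposited for it is referred to as its strength. A promoter peak had its midpoint within 1000 bp of a transcription start site (TSS) of the gene. A promoter was called shared when a promoter peak of replicate 1 was covered over at least 75 bp by a peak of replicate 2. Strength had a median of 16 over the 209299 peaks of replicate 1 and of 42 over the 219061 peaks of replicate 2. The read depth behind these values is unknown, so that strengths were not compared between libraries and each peak was also given as a percentile among all peaks of its own library. In bulk tissue, fewer cells with an open promoter and less accessibility per cell cannot be told apart.

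The cluster as a whole had fewer shared promoter peaks than protein-coding genes in general, and the shortfall was unequal. Of the 57 genes, 20 had a shared promoter peak (35.1%), against 64.2% of all protein-coding genes. A promoter peak was present for 26 genes in replicate 1 (45.6%, against 67.3% of all genes) and for 45 in replicate 2 (78.9%, against 70.8%). The cluster was thus below all genes in replicate 1 and above them in replicate 2. Shared promoters were most frequent in the gamma set with 12 of 21 (57.1%), followed by alpha with 5 of 14 (35.7%) and beta with 3 of 22 (13.6%). Among the 5 C-type genes 4 were shared, and among the other 52 genes 16 (30.8%). These are counts of genes in 2 libraries, and the differences between sets were described and not tested. A gene with more TSSs has a wider promoter window. The members had 1 or 2 TSSs each, while the 21668 protein-coding genes had 41135, and the comparison with all genes was not adjusted for this.

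The peaks that were present were mostly weak. The strongest promoter peak of a gene had a median strength of 19 over the 26 genes with a peak in replicate 1, at percentile 56.4, while for all protein-coding genes with a peak the median was 85, at percentile 96.3. In replicate 2 the median over 45 genes was 29, at percentile 24.3, against 121 and percentile 96.0 for all genes. The mean of the median percentiles of both libraries was 40.3 ± 22.8 (SD, n = 2). These medians cover different genes, 26 and 45, so that the SD is not a spread of the same promoters between replicates. In replicate 1 the strengths ran from 9 to 45 in alpha, from 8 to 18 in beta and from 15 to 96 in gamma. In replicate 2 they ran from 16 to 88 in alpha, from 14 to 30 in beta and from 26 to 138 in gamma. In both libraries the highest beta promoter was below the lowest C-type promoter that had a peak. For the 22 genes with a promoter peak in both libraries, the percentiles followed nearly the same order, with a Spearman rho of 0.91 across genes, which share both libraries and are not independent.

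**Figure D1:**
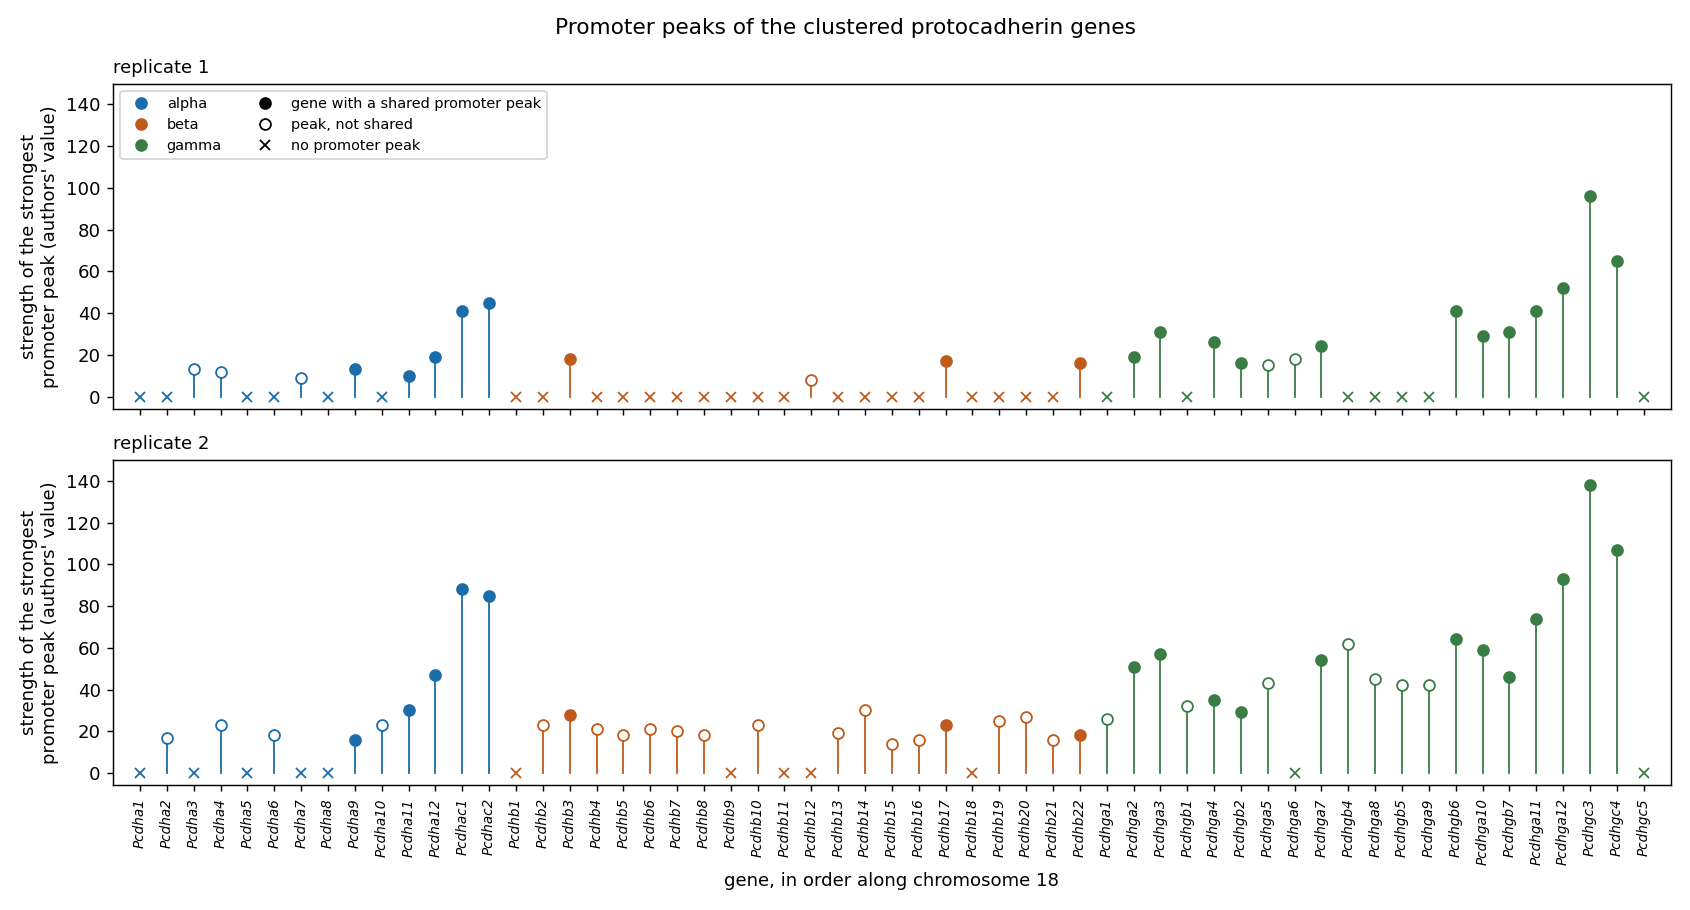
Strength of the strongest promoter peak (the authors' value) of each of the 57 genes in order along chromosome 18, with replicate 1 above and replicate 2 below; filled points are genes with a shared promoter peak, open points genes whose peak was not shared, and crosses at 0 genes with no promoter peak in that library. In both libraries Pcdhgc3 is highest, at 96 and 138, and beta promoters reach no more than 18 and 30. The strongest promoters of alpha and of gamma are those of C-type genes, while the C-type gene Pcdhgc5 has no peak.

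By mean percentile, 4 of the 5 strongest promoters of the cluster belonged to C-type genes, and the other C-type gene had no peak. Pcdhgc3 had a peak 79 bp before its TSS with a strength of 96 in replicate 1 and 138 in replicate 2. These values were at percentiles 97.9 and 99.4, above the median protein-coding gene with a peak. Pcdhgc3 also had a second shared peak after its TSS, at 581 bp with strength 61 in replicate 1 and at 561 bp with strength 105 in replicate 2, and its promoter lay in the longest promoter hotspots of the cluster, 1242 bp and 1717 bp. Pcdhgc4 had its strongest peak 10 bp after its second TSS with strength 65 in replicate 1 and 30 bp before it with strength 107 in replicate 2. It had 6 promoter peaks in replicate 1 and 4 in replicate 2, over a window widened by its 2 TSSs, and its longest promoter hotspot was 283 bp in replicate 1 and 796 bp in replicate 2, shorter than those of Pcdhgc3.

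The alpha C-type genes were the strongest of their set. Pcdhac1 had a peak 42 bp before its TSS in both libraries, with strengths 41 and 88 at percentiles 82.7 and 87.1, and the peaks coincided over all 150 bp. Pcdhac2 had 3 peaks in replicate 1 and 2 in replicate 2, the strongest at 45 and 85, all of them after the TSS between 148 and 628 bp. Its hotspot was 1156 bp long in replicate 1 and 1538 bp in replicate 2. Pcdhgc5, the last gene of the cluster, had no promoter peak in either library. The members of this class therefore fell at both ends of the range.

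Outside the C-type class the gamma genes had the stronger promoters. Pcdhga12, the gene next to the C-type genes, had its peak 351 bp after the TSS in both libraries, with strengths 52 and 93 at percentiles 88.5 and 89.1. Pcdhga11 had strengths 41 and 74, and Pcdhgb6 41 and 64. These 3 genes, with the highest mean percentiles of the gamma set outside the C-type class, lie among the 5 genes that precede the C-type genes. The gamma A genes were shared in 7 of 12 and the gamma B genes in 3 of 6. Counting from the first gamma gene and setting a gene without a peak to 0, the order along the chromosome and the percentile had a rank correlation of 0.42 in replicate 1 and 0.48 in replicate 2 (n = 21 genes). Without Pcdhgc5 the values were 0.59 and 0.70 (n = 20), so that the last gene alone lowered them.

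Pcdhgb4, Pcdhga8, Pcdhgb5 and Pcdhga9, which are consecutive genes inside the gamma set, had no promoter peak in replicate 1. In replicate 2 their strengths were 62, 45, 42 and 42, at percentiles of 50.5 to 72.1, and comparable with those of shared gamma promoters such as Pcdhga2 at 51 or Pcdhgb7 at 46. Pcdhga1 and Pcdhgb1, toward the upstream end, were likewise seen in replicate 2 only, at 26 and 32. Of the 36-letter words within 1000 bp of the TSS, 16.8% for Pcdhgb4, 9.67% for Pcdhga8, 10.3% for Pcdhgb5 and 7.02% for Pcdhga9 occurred more than once in the genome, against a gamma median of 1.17%. The share was 8.24% for Pcdhgb6 and 9.72% for Pcdhgb7, which had shared peaks. Nothing in the sources used here says how reads from such words were placed, and their part in the result was not tested.

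The other alpha promoters were low. Pcdha12 was the strongest, with 19 in replicate 1 and 47 in replicate 2, and its shared peak lay not at the TSS but 582 and 562 bp after it. Pcdha11 had peaks of 10 and 30 just before the TSS. Pcdha9 was shared at 13 and 16, at percentile 41.7 in replicate 1 and 1.90 in replicate 2. Pcdha4 had a peak at its TSS in replicate 1 (strength 12) and one 576 bp after it in replicate 2 (strength 23), which did not overlap. Of the 12 alpha genes outside the C-type class, 3 were therefore shared (25%), and the rank correlation of percentile with order along alpha was 0.36 and 0.57 without the C-type genes (n = 12), compared with 0.61 and 0.73 with them (n = 14).

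The beta genes had weak promoter peaks that were found in replicate 2 far more often than in replicate 1. A peak was present for 4 of 22 genes in replicate 1 (18.2%) and for 17 in replicate 2 (77.3%). The 3 shared genes were Pcdhb3 with strengths 18 and 28, Pcdhb17 with 17 and 23, and Pcdhb22 with 16 and 18. No beta gene stood out in either library, and percentile was almost unrelated to position along the set (rho 0.12 and -0.03, n = 22). The 17 peaks of replicate 2 lay close to the TSS: 13 were within 100 bp of it and the median was 30 bp upstream. Hotspots over the whole stretch of beta genes had a median length of 146.5 bp in replicate 1 and 207.5 bp in replicate 2. This was close to the 138 and 215 bp of the whole cluster.

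Over the whole cluster, 23 genes had a promoter peak in replicate 2 only (4.34% of all protein-coding genes did) and 4 in replicate 1 only (0.868% of all genes). The 4 were Pcdha3, Pcdha7, Pcdhb12 and Pcdhga6. The 23 comprised 14 beta genes (Pcdhb2, Pcdhb4, Pcdhb5, Pcdhb6, Pcdhb7, Pcdhb8, Pcdhb10, Pcdhb13, Pcdhb14, Pcdhb15, Pcdhb16, Pcdhb19, Pcdhb20 and Pcdhb21), the 6 gamma genes named above, and Pcdha2, Pcdha6 and Pcdha10. Their strengths in replicate 2 ran from 14 to 62 with a median of 23 at percentile 10.7, low among that library's peaks. Pcdha4 and Pcdhga5 had a peak in each library without overlap, a pattern found for 2.27% of all genes. The promoter peaks of these 23 genes were not found in replicate 1, the only other library.

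A promoter peak was found in neither library for 8 genes (28.3% of all protein-coding genes had none). These were Pcdha1, Pcdha5, Pcdha8, Pcdhb1, Pcdhb9, Pcdhb11, Pcdhb18 and Pcdhgc5. The share of repeated 36-letter words within 1000 bp of the TSS had a median of 9.11% over these 8 genes, 7.94% over the 27 genes with a peak in 1 library and 0.814% over the 22 with peaks in both, with ranges that overlapped. Pcdhb1 and Pcdhb18 had no repeated word in that window and Pcdhgc5 had 0.458%. In the 300 bp from 250 bp before to 50 bp after the TSS, repeated words were found for 2 of the 57 genes, Pcdhgb6 and Pcdhgb7. The part of repeated sequence in the missing peaks was not tested.

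When present, the strongest promoter peak of a gene mostly sat at the start site in beta and gamma, and less often in alpha. The strongest peak was centred within 100 bp of a TSS for 20 of 26 genes in replicate 1 (76.9%) and for 34 of 45 in replicate 2 (75.6%), compared with 63.9% and 63.6% of all protein-coding genes with a peak. The median position was 22 bp and 30 bp upstream. In alpha the strongest peak was within 100 bp for 5 of 8 genes and 4 of 9 (62.5% and 44.4%). This was near all genes in replicate 1 and below them in replicate 2. The counts were 4 of 4 and 13 of 17 in beta, and 11 of 14 and 17 of 19 in gamma. Several alpha genes had a peak further inside the gene: Pcdha4, Pcdha6, Pcdha10 and Pcdha12 had one between 562 and 608 bp after the TSS in replicate 2, and Pcdha12 also in replicate 1.

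**Figure D2:**
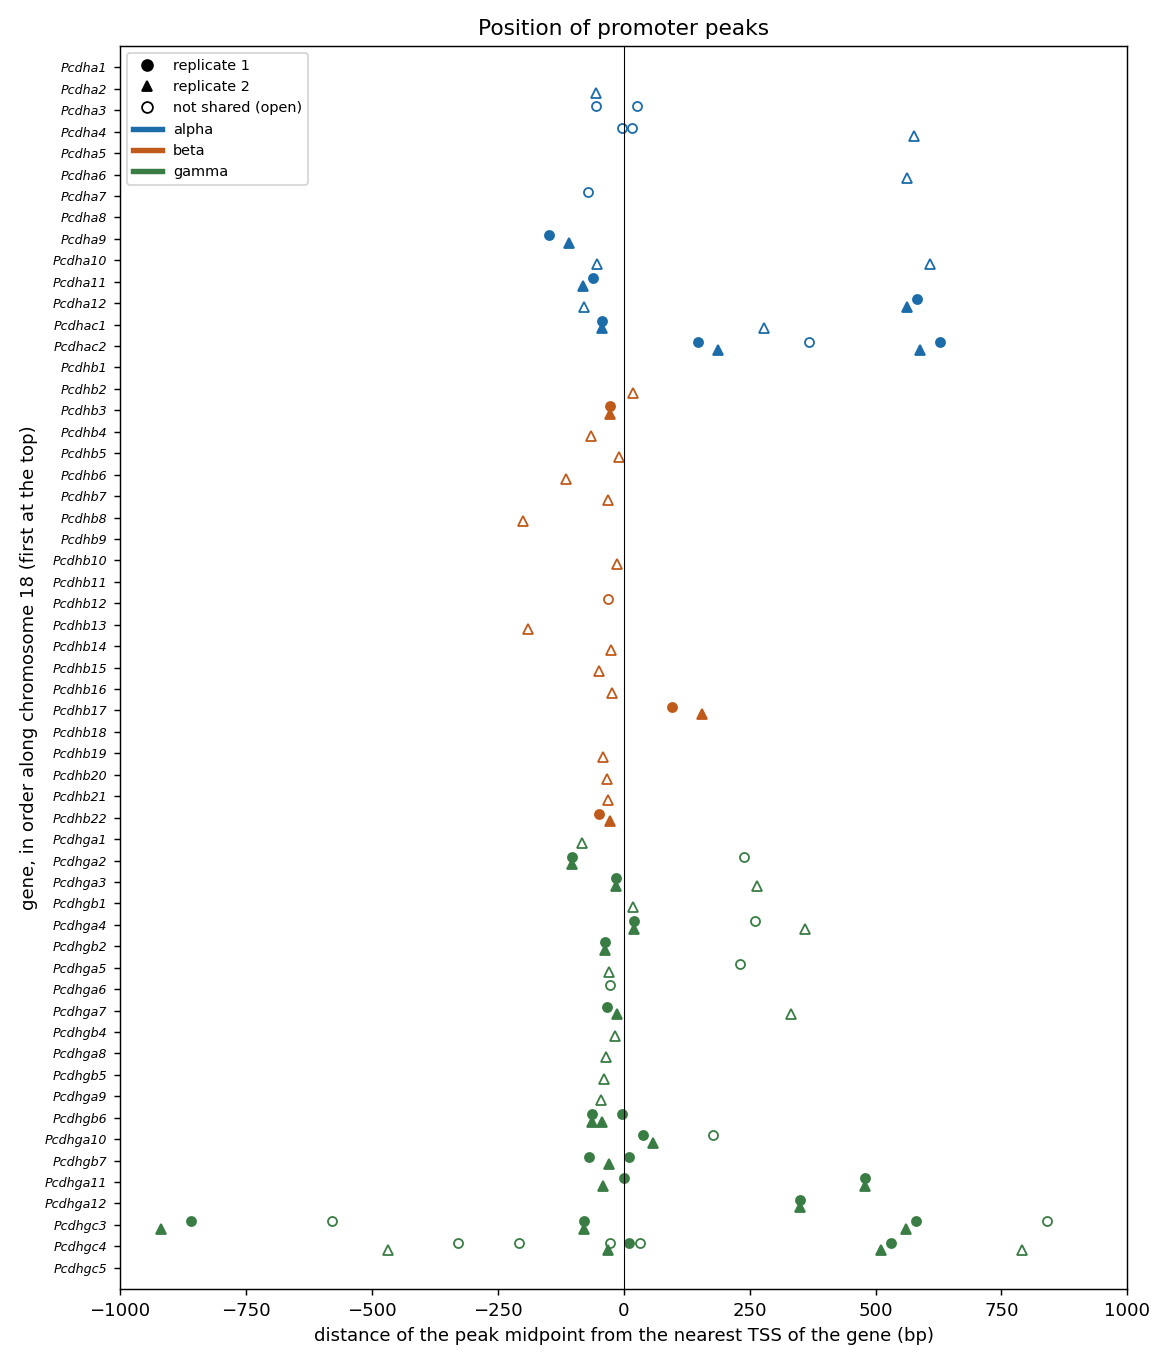
Distance in bp from the nearest TSS of the gene to the midpoint of every promoter peak, 1 row for each of the 57 genes in order along the chromosome; circles are replicate 1, triangles replicate 2, filled symbols shared and open symbols not shared. Within 100 bp of the TSS lie 17 of 21 beta, 33 of 58 gamma and 12 of 25 alpha peaks of both libraries, several alpha genes have peaks near 562 to 608 bp after it, and the peaks of Pcdhgc3 run from -919 to 841 bp.

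Sequence around the start sites was compared with these positions using short words, on the strand of the gene, from 250 bp before to 50 bp after the TSS. The words were chosen after the promoters had been seen, so that their counts are descriptions. The letters CGCT, the core of a promoter element known to be conserved in most clustered protocadherin genes, were found in 50 of 57 genes (87.7%), at a median of 62 bp before the TSS, and in 52.4% of all protein-coding promoters. On the opposite strand they were found in 27 genes (47.4%, against 53.5% of all), so that the excess was on 1 strand. The extended word CGCTGT, which contains CGCT, was found in 18 of 21 gamma genes, 6 of 14 alpha genes and 3 of 22 beta genes, against 5.82% of all promoters. The word TGGCGCT, which also contains CGCT and can run into CGCTGT, was found in 17 of 22 beta genes, 1 gamma gene and no alpha gene, against 2.23% of all promoters. The 3 gamma genes without CGCTGT were Pcdhga12, Pcdhgc4 and Pcdhgc5.

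In most genes that had such a word and a promoter peak, the word lay inside a peak. Among genes with both CGCT on their own strand and a promoter peak, the word lay inside a peak in 18 of 22 genes in replicate 1 and in 35 of 39 in replicate 2 (81.8% and 89.7%), against 62.9% and 65.1% of all protein-coding genes with both. For CGCTGT in gamma the counts were 10 of 12 and 16 of 17, against 50% and 51.9% of all such genes. For TGGCGCT in beta, replicate 2 had the word inside the peak in all 13 genes that had both, against 55.2% of all such genes. Words near the TSS fall inside peaks centred there, and the position of the word was not separated from this. Of the 7 genes lacking CGCT, 4 had a promoter peak in replicate 1 and 6 in replicate 2, and of the 50 with it, 22 and 39. The word TATAAA was found in 7 of 57 genes (12.3%, against 8.71% of all promoters), at a median of -179 bp, and lay inside a peak in 1 of the 2 genes with both in replicate 1 and in 0 of 6 in replicate 2.

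The core of the CTCF motif was looked for on both strands, together with a looser form that leaves 1 more letter free and so includes it. From 250 bp before to 50 bp after the TSS the core was found in 0 of 57 promoters on either strand, against 1.54% of all promoters on the strand of the gene and 1% on the other. Lack of this exact string does not show that the promoters lack CTCF sites. The core ends in GGC, letters that the word TGGCGCT also holds, and whether the words above belong to CTCF sites was not tested. The looser form was found there in 4 genes on the strand of the gene, Pcdha4, Pcdhac1, Pcdhb1 and Pcdhb15 (5.63% of all promoters), and in 0 on the other (4.62% of all). Inside the alpha first exons the picture differed. The core was present on the strand of the gene in 7 alpha genes (Pcdha1, Pcdha4, Pcdha6, Pcdha7, Pcdha8, Pcdha9 and Pcdha12), between 537 and 581 bp after the TSS and within the gene's own coding exon in all 7. Counting also the core 339 bp before Pcdhac2, 8 of 14 alpha genes (57.1%) had one within 1000 bp of the TSS on that strand. None of the alpha genes had one on the other, while 6.83% of all protein-coding genes had one on the strand of the gene. The looser form was not confined to alpha. After the TSS, on the strand of the gene, it was present in 12 of 14 alpha, 7 of 21 gamma and 2 of 22 beta genes. Within 1000 bp on either side, the shares on that strand were 100%, 33.3% and 9.09%, against 21.5% of all protein-coding genes.

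Peaks lay over some of these exonic motifs. The core of Pcdha12, 537 bp after the TSS, was inside the shared peak of strength 19 and 47. Those of Pcdha4 and Pcdha6 were inside peaks of strength 23 and 18 in replicate 2 only, and the other 4 were in no peak. The upstream looser motif of Pcdhac1, 72 bp before the TSS, was inside the shared peak at its start. In gamma, the looser motif of Pcdhga11, 444 bp after the TSS, was inside a shared peak of strength 26 and 51. That of Pcdhga5, 288 bp after the TSS, was inside a peak of strength 15 in replicate 1 only. A match of these letters is a description of the sequence and does not show that CTCF was bound, and no match says only that the letters are not in that window. Within 1000 bp of the TSS on either side, alpha genes had a median of 10.4% of 36-letter words that occur more than once in the genome.

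Base composition was set beside the same measure in all genes, because promoters rich in CpG are generally open in many tissues. The ratio of observed to expected CpG in the 1000 bp around the TSS had a median of 0.684 in alpha, 0.379 in beta and 0.596 in gamma, against 0.576 in all protein-coding genes. In the third quartile of this ratio over all genes, a shared promoter peak was present for 94.2% of protein-coding genes, while 3 of 12 alpha genes and 7 of 12 gamma genes there did. In the second quartile the share was 55.9% for all genes and 2 of 18 for beta, 3 of 7 for gamma and 2 of 2 for alpha. The alpha and gamma genes of the third quartile and the beta genes of the second were thus below other genes of like CpG content, whereas the 2 alpha genes of the second quartile, the 4 lowest beta genes (1 of 4, against 9.65%) and the 2 highest gamma genes (2 of 2, against 97%) were not. Across the 57 genes the CpG ratio and the percentile had a rank correlation of 0.32 in replicate 1 and 0.31 in replicate 2, as a description.

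**Figure D3:**
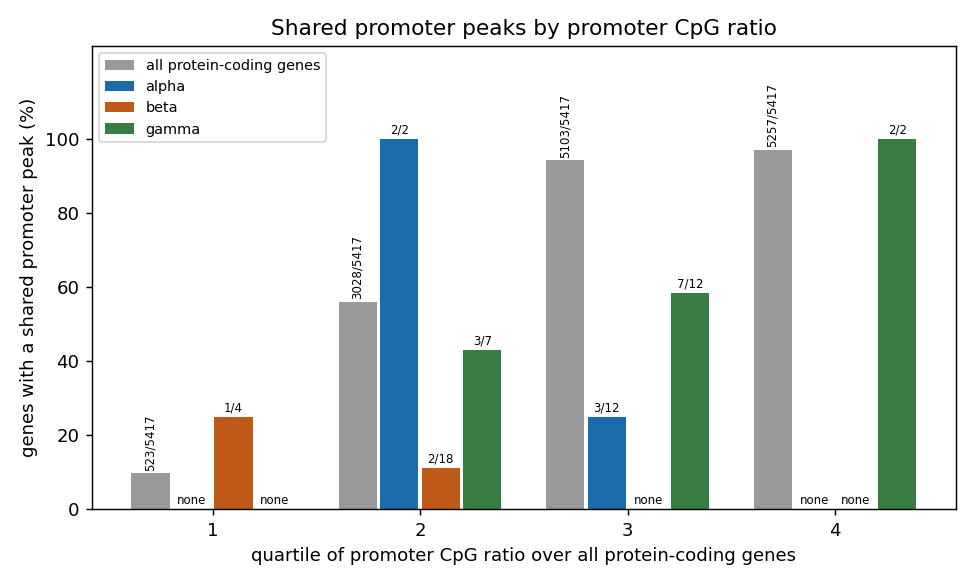
Share of genes (%) with a promoter peak shared by both libraries, by quartile of promoter CpG ratio over all protein-coding genes; grey bars are all protein-coding genes, coloured bars the alpha, beta and gamma sets, the fractions are genes with a shared peak over genes in the quartile, and "none" marks a set with no gene there. In the third quartile 3 of 12 alpha and 7 of 12 gamma genes were shared beside 94.2% of all genes.

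Over the whole cluster, accessible sites were unevenly spread, with most shared peaks at the gamma end and few in the beta stretch. The cluster spanned 912 kb and held 104 peaks in replicate 1, 108 in replicate 2 and 45 shared peaks, or 4.94 per 100 kb, compared with 3.25 on chromosome 18 and 3.36 on all chromosomes analysed. The gamma constant exons had 30.4 shared peaks per 100 kb, with 6 in 19.7 kb, and the gamma variable exons 13.1, with 21 in 160 kb. The beta stretch had 1.16 per 100 kb, with 3 in 260 kb, all of them promoter peaks. Its low count rests on replicate 1, where it had 2.31 peaks per 100 kb, while its 6.94 in replicate 2 was close to the 7.40 of the alpha variable exons and above the 6.47 and 6.55 of the gaps on either side. Alpha lay between, at 3.24 over the variable exons and 4.86 over the constant exons. Of the 45 shared peaks, 27 were promoter peaks of clustered protocadherins, 1 was at another promoter and 17 were away from promoters.

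**Figure D4:**
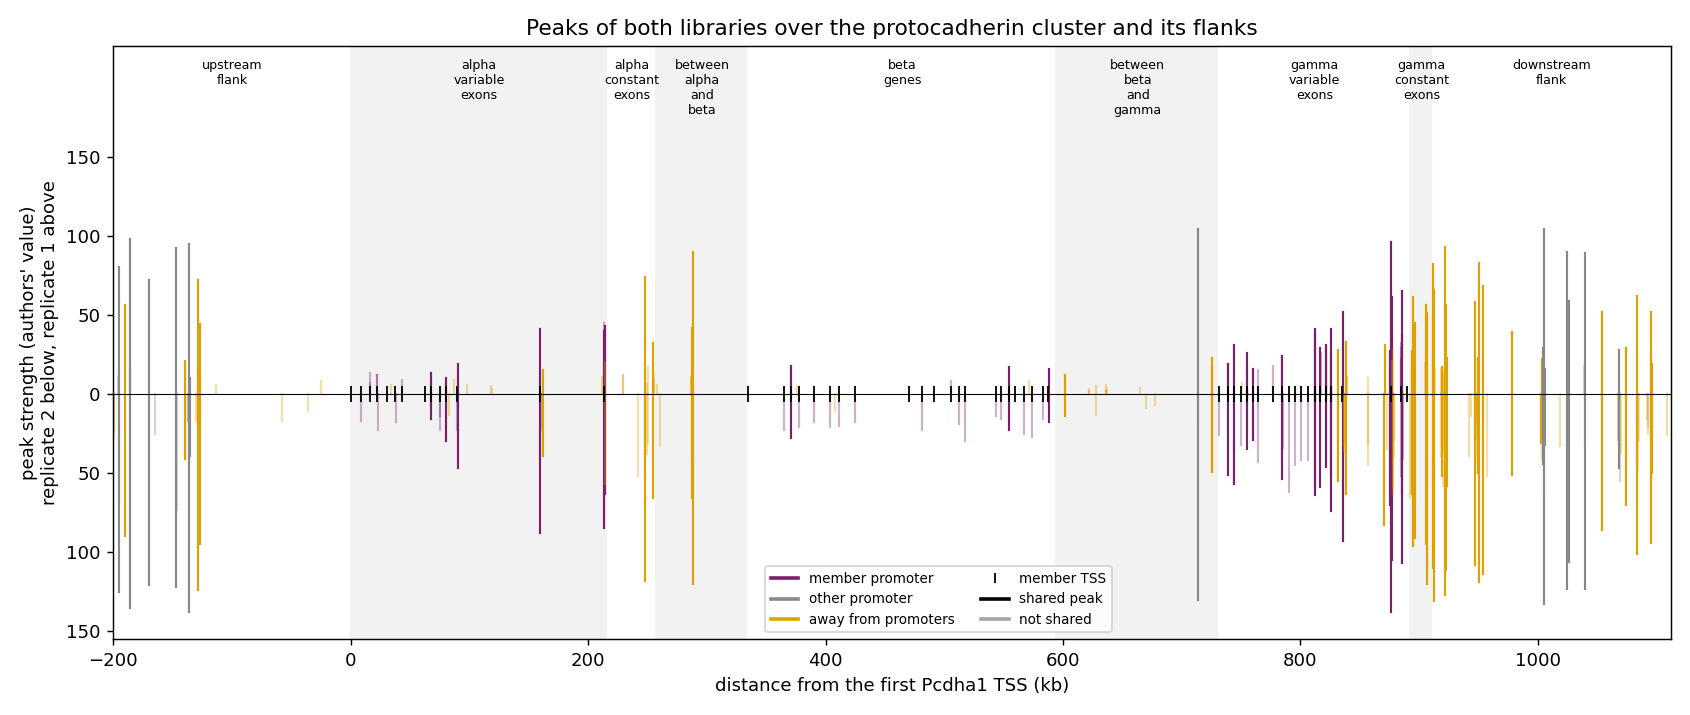
Strength (the authors' value) of every peak of replicate 1 (upward) and replicate 2 (downward) against distance in kb from the first Pcdha1 TSS, over the cluster and 200 kb on either side; colours separate promoter peaks of clustered protocadherins, other promoters and peaks away from promoters, pale lines are peaks not shared, ticks are TSSs and shading marks segments. Shared peaks crowd the gamma end and the flank behind it, and the beta stretch has 3 shared peaks, all at promoters.

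The strongest peaks away from promoters stood inside and just behind the cluster, in stretches where enhancers of these genes are known. The sources used here give no coordinates for those enhancers, so that no peak was matched to one. Over the cluster and its flanks 41 shared peaks were away from promoters, and of the 10 with the highest mean percentile 2 lay within the cluster and 7 in the downstream flank. Between the alpha and beta sets, chr18:37218276-37218425 had strengths of 90 and 120 and lay upstream of the nearest TSS, that of Pcdhb1, at -46587 bp. It lay within no clustered protocadherin gene and only in introns of the readthrough models Gm42416, Gm37013 and Gm37388. A weaker shared peak in the same hotspot, chr18:37217396-37217545 with strengths 42 and 66, held the CTCF core on the strand opposite to the genes. In the alpha constant stretch, chr18:37178436-37178585 had strengths of 74 and 118, 35008 bp after the TSS of Pcdhac2, and overlapped an exon of the noncoding gene Gm10544.

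Behind the gamma constant exons, chr18:37842136-37842285 was intergenic with strengths of 82 and 131. The peak chr18:37842676-37842825, with 66 and 108, shared its hotspot of 1885 bp in replicate 1 and held the CTCF core on the strand opposite to the genes. Introns of Diaph1, a regulator of actin filaments that is transcribed from the other strand toward the cluster, held 5 more of the 10. Among these chr18:37852196-37852345 had 93 and 127, the highest mean percentile in the region away from promoters, and chr18:37852696-37852845, in the same hotspot, had 56 and 111. The others were chr18:37880256-37880405 with 83 and 119, chr18:37883596-37883745 with 68 and 114, which held the core on the strand opposite to the clustered genes, and chr18:37877376-37877525 with 58 and 108. The remaining one of the 10, chr18:36801716-36801865 with 72 and 124, was intergenic at the far upstream end, 7915 bp from Zmat2. All 10 lay in replicate 1 hotspots at the −log10 q ceiling of 100. They were stronger than every clustered protocadherin promoter except Pcdhgc3 and, in replicate 1 for 2 of them, Pcdhgc4. Of the 25 shared peaks of the downstream flank in replicate 1, 2 held the core on the strand of the clustered genes and 2 on the opposite strand. The former, outside the 10, were chr18:37984416-37984565 with 52 and 86 and chr18:38024996-38025145 with 52 and 94. These counts stand beside 12.3% of all shared peaks genome-wide that held the core on either strand.

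Within the gamma constant stretch the 6 shared peaks had strengths from 27 to 61 in replicate 1 and from 63 to 120 in replicate 2. The strongest in replicate 2, chr18:37836396-37836545 with 51 and 120, was intronic, and chr18:37835696-37835845, with 56 and 95 and in the same hotspot in replicate 1 but a separate one in replicate 2, held the CTCF core on the strand of the genes. One peak, chr18:37824956-37825105 with 61 and 96, was in a constant coding exon used by all gamma genes. In all shared peaks genome-wide, 12.3% held the core on either strand. Among the shared peaks away from promoters in the variable stretches, 2 were in coding exons: chr18:37768216-37768365 (33 and 63) lay in the coding exon of Pcdhga12 and chr18:37091996-37092145 (15 and 39) in that of Pcdhac1.

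In hotspots, too, the gamma set had the highest share of its genes covered. A TSS lay in a hotspot for 12 of 21 gamma genes in replicate 1 and 18 in replicate 2, for 4 and 7 of 14 alpha genes, and for 3 and 13 of 22 beta genes, against 61.5% of all protein-coding genes in replicate 1 and 65.6% in replicate 2. All sets were below all genes in replicate 1, gamma was above them in replicate 2, and beta was below alpha in replicate 1 and above it in replicate 2, as with peaks. Hotspots of the cluster had a median length of 138 bp in replicate 1 and 215 bp in replicate 2, against 201 and 240 bp over all chromosomes. The −log10 q ceiling was reached by 12.9% of the cluster's hotspots in replicate 1 and by 32.3% in replicate 2, against 29.4% and 35.2% of all hotspots. In the beta stretch the ceiling was reached by 0 of 6 and 1 of 18 hotspots.

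Neighbouring genes were read by the same measures. Taf7, a subunit of the general transcription factor TFIID between the beta and gamma sets, had a shared promoter peak of 104 and 130, and Slc25a2 beside it had none. Diaph1 had 104 and 133 and the histone deacetylase gene Hdac3 90 and 123 downstream, and Zmat2 had 95 and 138 upstream. Not all neighbours were strong: Arap3 downstream had a shared promoter peak of 28 and 55. Dnd1 upstream had no promoter peak in replicate 1 and one of strength 25 in replicate 2. Taf7, Diaph1, Hdac3 and Zmat2 were each above the strongest clustered protocadherin promoter other than Pcdhgc3 in both libraries. Protocadherin genes outside the clusters were also more often open: 10 of 12 had a shared promoter peak (83.3%, against 64.2% of all protein-coding genes), among them Pcdh10 with 105 and 139 and Pcdh17 with 101 and 139, and the other two, Pcdh15 and Pcdh12, had a peak in replicate 2 only, at 50 and 33. Of the 12, 6 were in the third and 1 in the highest quartile of CpG ratio, where 94.2% and 97% of all genes were shared. In the second quartile 3 of 4 were shared, against 55.9%.

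Marker genes of the cell types that the tissue could hold were read in the same way. Facial mesenchyme markers had a shared promoter peak in 5 of 5 genes and neuronal markers in 6 of 6. Ectoderm markers did in 2 of 4, with no peak at Krt5 and Krt14, endothelial markers in 1 of 3 and erythroid markers in 0 of 3. An open promoter does not show that a gene is expressed, so that these counts do not give the share of neurons, and their part in the accessibility of the cluster was not tested. Over all protein-coding genes the share was 64.2%, and it ran from 9.65% in the lowest to 97% in the highest quartile of CpG ratio. In the lowest quartile were 2 of 3 erythroid and 1 of 6 neuronal markers, and none of the mesenchyme, ectoderm and endothelial ones.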

How the data were processed

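Peaks and hotspots of each of the 2 libraries were used as deposited, on build mm10 per the labels, each list called on its own library. The peak strength is a whole-number score deposited by the authors, with a meaning and a relation to depth not given in the sources used here, like the aligner, the caller and the read totals. Each hotspot carried a deposited −log10 q between 1.30 and a ceiling of 100. Strength never exceeded 149 on the chromosomes analysed.

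Gene models were those of the GENCODE M21 basic set, with 41135 distinct TSSs of protein-coding transcripts, and sequence came from GRCm38.p6, the same build. Symbols starting as stated defined the members; Pcdhgb8, a polymorphic pseudogene there, was left out. GENCODE gives a pair of genes the symbol Pcdha11, and the first of them is called Pcdha10, its RefSeq name. Percentiles rank a peak within its own library on chromosomes 1 to 19 and X. Named were the C-type genes, the 3 other genes of each set with the highest mean percentile, genes with peaks in 1 library or none, and the 10 strongest shared peaks away from promoters. Members, lists and words were chosen with earlier results of these data known. With 1 group no test was run; counts are set beside all protein-coding genes, and genes and peaks are not replicates. No sequence of this locus is printed here. Alternatives changed the window, the overlap, the peak threshold, the TSS set, the element, the direction of the match and the library. Scripts were checked on simulated intervals and sequences and used Python 3.11.15, numpy 2.4.6, pandas 2.3.3 and scipy 1.17.1.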

Additional observations from a re-analysis of the deposited data

How the results depend on the processing

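Of 50 alternatives, 32 left a value within 1.5 times or 1 SD and 18 moved it. Keeping the 50000 strongest peaks of each library left 2 alpha, 0 beta and 4 gamma genes with a shared promoter peak, 37 shared peaks over the cluster and flanks and 7 in the cluster away from promoters. Asking for an overlap of 90% of a peak left 1 alpha and 1 beta gene, 28 peaks over the region and 5 away from promoters. Using 1 library alone, so that no match was needed, gave 8 to 9 alpha, 4 to 17 beta and 14 to 19 gamma genes, 157 to 184 peaks over the region and 47 to 58 away from promoters in the cluster. The beta count rests most on the library chosen: 4 genes without replicate 2 and 17 without replicate 1. The mean of the median percentiles, 40.3 among all peaks, was 14.1 among promoter peaks of protein-coding genes. In an alternative chosen after seeing the data, the median percentile was 56.4 in replicate 1 alone and 24.3 in replicate 2 alone. Each of 2 values always lies within 1 SD of their own mean. That this alternative is counted among the 32 therefore shows no stability. Depth is unknown, so that it cannot be said whether a missing peak was detectable in that library, and it is not shown to be absent. No paired analysis was possible because there was 1 group and no test.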

Other observations

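Listed regulators and cytoplasmic partners of the clustered protocadherins, and the seven-pass cadherin genes, mostly had a shared promoter peak. Of 19 regulators of the cluster (CTCF, cohesin with its loader and release factor, enzymes of DNA and histone methylation, and the repressors Rest, Trim28 and Smchd1), 18 had a shared promoter peak. The exception was Tet1, which had no promoter peak in either library. Of 11 genes for cytoplasmic partners, the WAVE complex and adhesion kinases, 10 were shared, and Ptk2b had a peak in each library without the overlap. The 3 seven-pass cadherin genes, which also act in neuronal adhesion and polarity, were all shared. These shares stand beside 64.2% of all protein-coding genes and were not tested. Of the regulators, 17 were in the highest quartile of promoter CpG ratio, where 97% of all genes had a shared peak. Of the cytoplasmic partners, 3 were in the third quartile and 6 in the highest. For the seven-pass cadherins these numbers were 1 and 2. In the third quartile 94.2% of all genes had a shared peak. The counts of all 3 lists were thus near those of genes of like composition.

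Among 3 protein-coding readthrough models that span the cluster, Gm37013 and Gm37388 had no promoter peak, and Gm42416 had peaks of 12 and 23 that did not overlap between libraries and lay in the promoter window of Pcdha4. The lowest shared peak of the cluster away from promoters, chr18:37531516-37531665, lay 13232 bp after the TSS of Pcdhb22 with strengths 12 and 14.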
